A study of Homo sapiens with 12 samples.

Results

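This account describes how MV4-11 cells changed their RNA after 6 h with the CDK6 degrader BSJ-03-123, as 3 treated libraries against 3 vehicle libraries. The members are the expressed genes of the raw count table: 14214 genes with enough reads to test, of 58051 in the table. MV4-11 is an established line of acute myeloid leukaemia, with a KMT2A fusion gene and FLT3 internal tandem duplication. It is 1 cell line, so the values hold for its genotype only. The vehicle group received 0.1% DMSO and the treated group 200 nM BSJ-03-123, and the labels name no other agent. The series holds 12 libraries in 4 groups of 3, with palbociclib and YKL-06-102 as the other treatments, each also at 200 nM for 6 h. BSJ-03-123 and YKL-06-102 are described by the submitters as phthalimide conjugates specific for CDK6, and palbociclib as an inhibitor of CDK4 and CDK6. The RNA was selected by its poly(A) tail. The table measures RNA, so the loss of CDK6 protein was not measured here.

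As background, CDK4 and CDK6 are the kinases that D-type cyclins activate early in the cell cycle. They phosphorylate RB1 and its relatives, which otherwise hold E2F transcription factors inactive, and E2F then drives the genes of DNA replication. Phthalimides bind cereblon, a substrate receptor of a ubiquitin ligase, and a conjugate of a phthalimide with a kinase ligand can bring the kinase to that ligase for degradation. CDK6 has a particular place in acute myeloid leukaemia with KMT2A fusions, where cells depend on it and where its loss has been linked to myeloid differentiation.

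The 6 libraries compared held 18764307 to 25539858 counts. Levels are in CPM, the read count of a gene scaled to the size of its library, with TMM factors that correct for library composition. A gene was called when the Benjamini-Hochberg adjusted p of edgeR's quasi-likelihood test over all 14214 genes was under 0.05. The error given with each log2 fold change is the standard error (SE) from the fit, with n = 3 libraries in each group. The myeloid leukaemia identity markers were all detected: the 12 genes summed to 2494 to 2531 CPM with DMSO and 2640 to 2667 CPM with BSJ-03-123. Markers of other cells were low: 15 T and B lymphoid genes summed to 6.35 to 7.01 CPM with DMSO and 5.93 to 6.62 CPM with BSJ-03-123, with 5 of them at 0 in all 6 libraries. The 15 erythroid and megakaryocyte genes summed to 37.6 to 43.1 and 39.2 to 40.8 CPM, with 7 at 0 throughout. The 14 stromal and epithelial genes summed to 155 to 156 CPM with DMSO and 163 to 166 CPM with BSJ-03-123, mostly PECAM1, which myeloid cells also express, with 4 at 0 throughout. Those ranges do not overlap, and their part in the results was not tested. DMSO replicate 2 stood apart from its group, with a chi-square per degree of freedom, a measure of count differences where 1 is sampling noise, of 5.41 and 8.18 against the other DMSO libraries, while those 2 differed by 1.75. Whether replicates came from separate cultures is not given in the labels, and a p-value here reflects only the scatter among the sequenced libraries, possibly technical.

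The response to BSJ-03-123 was broad in number and uneven in size: many genes moved a little, and the larger changes were mostly decreases, many of them in genes for DNA replication. Of the 14214 genes, 3997 were called (28.1%), 1763 higher (12.4%) and 2234 lower (15.7%). At least 2-fold decreases numbered 183 (1.29%) and at least 2-fold increases 29 (0.204%). Of those 29, only IL7R averaged 2 log2 CPM or more, so the rest were genes with few reads. Genes at least 2-fold lower took 1.34% of counts with DMSO and 0.49% with BSJ-03-123. The plot of fold change against expression level shows the replication genes spread below 0 and the increases close to it.

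**Figure D1:**
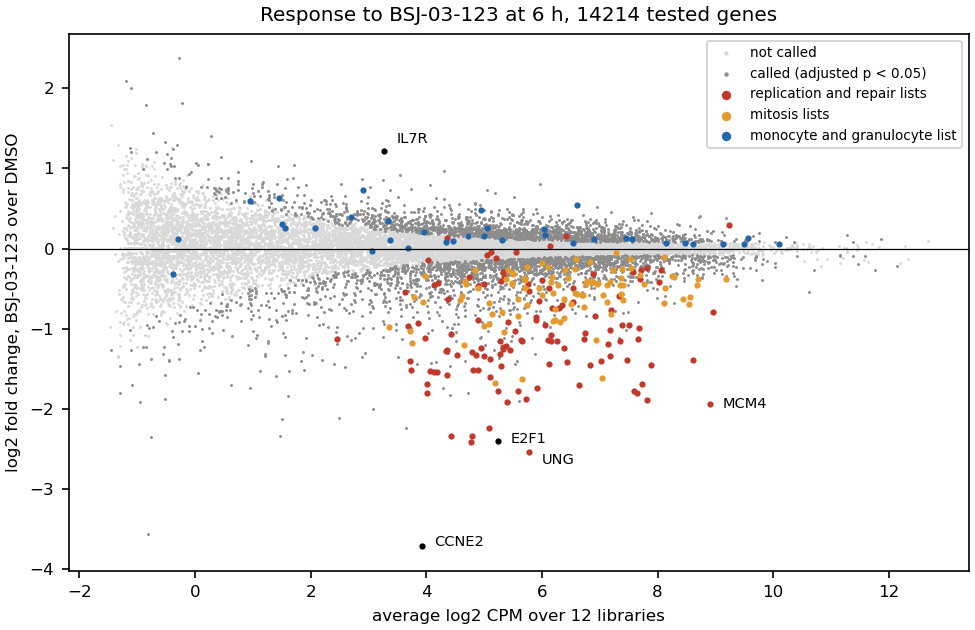
Each point is 1 of 14214 tested genes, with the average log2 CPM over 12 libraries on the x axis and the log2 fold change of BSJ-03-123 over DMSO on the y axis. Dark grey marks called genes, and colours mark 3 groups of lists. CCNE2 lies lowest at -3.72, and IL7R at 1.21 is the highest labelled gene.

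Most calls were small. Among the genes called lower, 1252 fell by less than 1.25-fold, 500 by 1.25-fold to 1.5-fold, 299 by 1.5-fold to 2-fold, 169 by 2-fold to 4-fold and 14 by 4-fold or more. Among those called higher, 1301 rose by less than 1.25-fold and 338 by 1.25-fold to 1.5-fold. The 3 treated libraries lay all above the 3 controls in 17.8% of genes and all below in 19.4%. Protein-coding genes were called in 32.5% of cases and long non-coding RNAs in 7.61%. These shares were not matched for expression level, and calls were rarer at low levels. Among 1670 genes averaging under 0 log2 CPM, 26 were called higher and 38 lower. Among 3104 genes at 6 to 8 log2 CPM, 564 were called higher and 700 lower. The split between higher and lower depends on the scaling: 44.1% of calls were higher with TMM factors and 61.8% with library totals, which shifted the median of all genes by 0.044 on the log2 scale. With library totals 2852 genes were called higher and 1765 lower. In bulk RNA, fewer cells in a phase of the cycle and less RNA per cell cannot be told apart.

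The target pathway itself was read first, at its kinases, cyclins and inhibitors. CDK6 RNA, from the gene at chromosome 7, 92604921 to 92836594 (GRCh38), was higher with the degrader. It measured 448, 422 and 467 CPM in the 3 DMSO libraries and 498, 524 and 506 CPM in the 3 BSJ-03-123 libraries, a log2 fold change of 0.19 ± 0.035 (edgeR adjusted p = 7.14e-05). The groups did not overlap, and the direction was up. CDK4, the related kinase, fell from 276, 287 and 267 CPM to 215, 206 and 201 CPM (-0.42 ± 0.033), and its exons overlap those of TSPAN31.

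Of the 15 tested genes of the CDK4/6, D cyclin, inhibitor and RB list, 4 were higher and 7 lower. Those shares were 26.7% and 46.7%, against 12.4% and 15.7% of all tested genes. The median log2 fold change was -0.06 against 0.01 for all genes. The D cyclins, which activate CDK4 and CDK6, differed among themselves. CCND2 rose from 37.2, 35.7 and 39.3 CPM to 54.6, 51.5 and 52.4 CPM (0.50 ± 0.048), and CCND1 rose by less (0.28 ± 0.076). CCND3 measured 204, 233 and 204 CPM with DMSO and 219, 218 and 205 CPM with BSJ-03-123, ranges that overlap, and was not called (edgeR adjusted p = 0.979). Among the inhibitors, CDKN2C, which binds CDK4 and CDK6, fell the most: 60.0, 66.6 and 60.7 CPM became 36.4, 36.1 and 38.3 CPM (-0.76 ± 0.048). CDKN2D, CDKN1A and CDKN2A fell by 0.41, 0.31 and 0.26 on the log2 scale, and CDKN1B was not called (-0.061 ± 0.040).

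The pocket proteins, which repress E2F genes when unphosphorylated, did not move together. RBL1, itself a gene of the replication programme in many cells, went from 103, 97.8 and 109 CPM to 40.4, 42.9 and 40.9 CPM, 2.49 times lower. RB1 fell by less, from 69.7, 71.4 and 73.9 CPM to 58.6, 60.7 and 55.3 CPM (-0.30 ± 0.043). In neither gene did the groups overlap. RBL2, the third member, was slightly higher, at 134, 129 and 135 CPM with DMSO and 140, 144 and 142 CPM with BSJ-03-123 (0.10 ± 0.034, edgeR adjusted p = 0.0277). Its call was lost without DMSO replicate 1 or 2 or BSJ-03-123 replicate 2 or 3, and in a fit of the 2 groups alone, with adjusted p-values over the alternatives of 0.00179 to 0.140.

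Most members of the E2F family fell, by differing amounts. Of 9 tested E2F and DP genes 7 were lower and none higher, 4 of them at least 2-fold, with a median of -0.61. That is 77.8% lower and 0% higher, against 15.7% and 12.4% of all tested genes. At least 2-fold decreases made up 1.29% of all tested genes. E2F1, an activator of replication genes, measured 90.3, 93.0 and 89.0 CPM with DMSO and 17.6, 17.0 and 16.8 CPM with BSJ-03-123 (-2.40 ± 0.054, edgeR adjusted p = 4.05e-24). The 3 treated values lay within 1 CPM of each other and far below the controls. E2F2, another activator, fell from 29.7, 33.6 and 31.4 CPM to 6.72, 6.56 and 6.84 CPM (-2.24 ± 0.084). The atypical repressors E2F7 and E2F8 fell by 1.44 and 1.74 on the log2 scale. E2F3 fell by less (-0.23 ± 0.045), as did the dimer partners TFDP1 (-0.61 ± 0.030) and TFDP2 (-0.36 ± 0.084). E2F4, which mainly acts in repression, and E2F6 were not called (-0.056 ± 0.034 and -0.13 ± 0.066).

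Promoter sequence was read for the genes at the extremes of the response, since E2F binding sites are short and the letters can be searched directly. RefSeq windows from 250 bases before to 50 after the start (GRCh38.p14) were matched by Ensembl ID, or by symbol where that gave none, to 9749 of the 14214 tested genes, and the first listed window was read for the 2750 with more than 1. The 150 bases upstream of the start are printed for 4 of the genes that fell the most, chosen because each holds a motif, and for 2 genes without one, UNG, which also fell, and IL7R, which rose. Of the 12 lowest fold changes that the naming rule gives, 9 genes had a window, and 5 of these windows held an E2F motif. The 4 without one were UNG, CHAF1B, PSMC3IP and TCF19. All are 5′ to 3′ on the gene's strand, and capitals mark the motif found. The E2F motifs searched, on both strands, were TTTCGCGC, TTTGGCGC, TTTCCCGC and TTTGGCGG.
GINS2: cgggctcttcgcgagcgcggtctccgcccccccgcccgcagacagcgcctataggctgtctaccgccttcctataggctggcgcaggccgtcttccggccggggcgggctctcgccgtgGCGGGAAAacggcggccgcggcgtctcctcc
E2F1: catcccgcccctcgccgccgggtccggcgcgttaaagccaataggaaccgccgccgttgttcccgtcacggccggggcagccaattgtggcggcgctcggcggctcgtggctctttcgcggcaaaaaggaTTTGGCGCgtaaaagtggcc
CDC45: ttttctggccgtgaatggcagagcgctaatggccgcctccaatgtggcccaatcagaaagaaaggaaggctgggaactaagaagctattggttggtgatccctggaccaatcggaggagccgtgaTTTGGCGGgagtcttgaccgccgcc
E2F2: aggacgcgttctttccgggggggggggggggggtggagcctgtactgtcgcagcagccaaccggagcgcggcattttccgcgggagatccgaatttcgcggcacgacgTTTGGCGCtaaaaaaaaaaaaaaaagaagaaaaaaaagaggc
UNG: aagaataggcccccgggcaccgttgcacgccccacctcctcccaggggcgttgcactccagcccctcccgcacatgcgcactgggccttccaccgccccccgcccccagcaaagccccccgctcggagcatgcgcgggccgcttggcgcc
IL7R: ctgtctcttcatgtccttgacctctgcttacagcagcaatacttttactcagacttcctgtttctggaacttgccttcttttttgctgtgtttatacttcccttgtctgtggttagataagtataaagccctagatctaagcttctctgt
These windows lie at chr16:85688955-85689104 (minus strand) for GINS2, chr20:33686386-33686535 (minus strand) for E2F1, chr22:19479770-19479919 (plus strand) for CDC45, chr1:23531234-23531383 (minus strand) for E2F2, chr12:109097447-109097596 (plus strand) for UNG and chr5:35856741-35856890 (plus strand) for IL7R. The marked letters sit 31, 20, 25 and 42 bases before the start in GINS2, E2F1, CDC45 and E2F2, counted from the first printed base of the motif. GINS2 carries TTTCCCGC on the other strand, so its printed capitals read as the reverse complement. None of the 4 motifs is in the letters printed for UNG or IL7R, which says nothing of what binds there.

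Over the whole comparison, any of the 4 E2F motifs stood in 36.0% of the windows of genes at least 2-fold lower (45 of 125). The share was 5.83% over all tested genes with a window (568 of 9749) and 4.75% over genes not called. Reading every window of a gene gave 40.8% and 6.93%. Genes lower by less than 2-fold had a motif in 9.80% and genes called higher in 3.56%. The lists hold many genes known as E2F targets, so the 2-fold-lower genes in none of them were counted apart: 15 of 62 windows had a motif, or 24.2%. These shares describe sequence only, and the motifs share most of their letters with one another.

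The cyclins that act with CDK2 once E2F genes turn on fell as well. Of 9 tested genes of the cyclin E, cyclin A and CDK2 list 8 were lower, 4 at least 2-fold, with a median of -0.82. The lower share was 88.9%, against 15.7% of all tested genes, of which 1.29% were at least 2-fold lower. CCNE2, cyclin E2, which activates CDK2 at the start of S phase, measured 47.5, 42.0 and 47.3 CPM with DMSO and 3.56, 2.87 and 3.92 CPM with BSJ-03-123. That is 13.2 times lower, or -3.72 ± 0.12 on the log2 scale (edgeR adjusted p = 2.07e-22). CCNE1, the related cyclin E1, fell from 32.2, 31.2 and 31.0 CPM to 11.7, 11.0 and 12.8 CPM (-1.41 ± 0.072). CDK2 itself went from 66.0, 66.6 and 66.5 CPM to 26.6, 25.4 and 25.3 CPM (-1.36 ± 0.048), and CDC25A, the phosphatase that activates it, fell by 1.41 on the log2 scale. CCNA2, cyclin A2 of S and G2 phase, fell by less (-0.66 ± 0.033), as did SKP2 (-0.82 ± 0.052), which targets the inhibitor p27 for degradation.

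**Figure D2:**
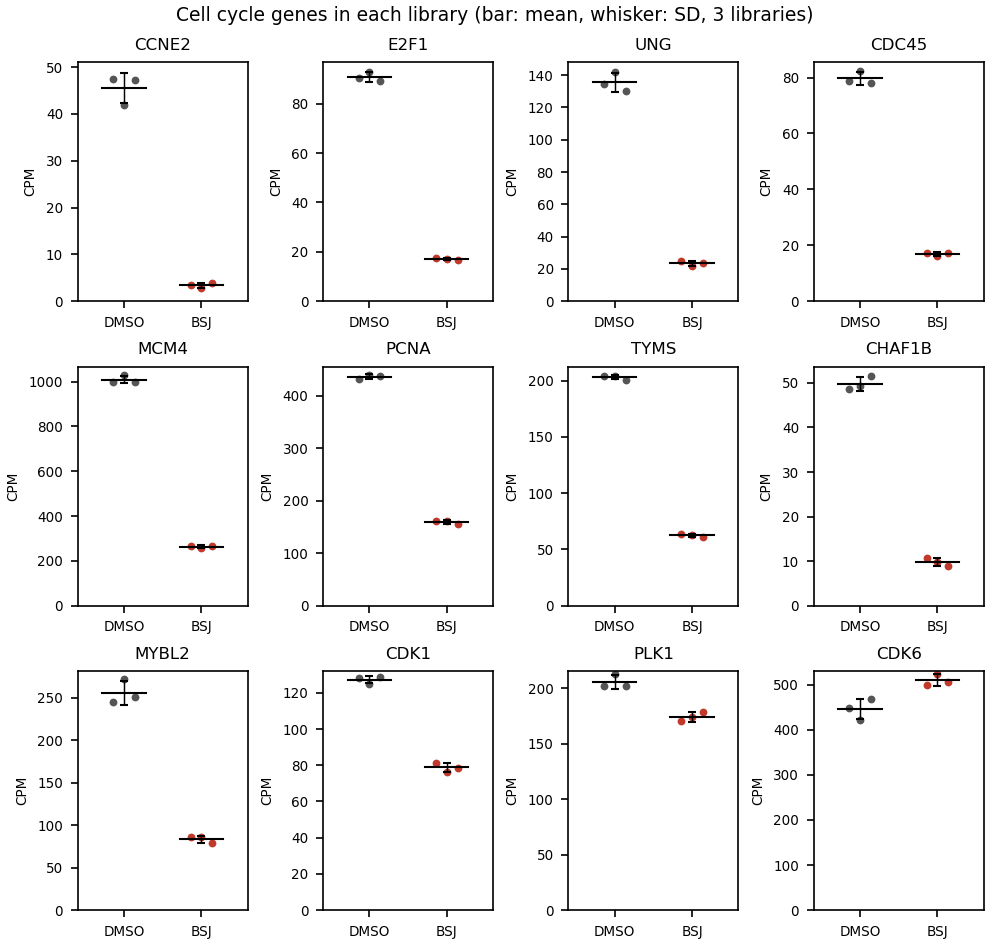
CPM of 12 genes in each of 3 DMSO and 3 BSJ-03-123 libraries, with points for libraries, bars for means and whiskers for SDs, and y axes from 0. The treated points lie below the controls for 11 genes, and above them for CDK6.

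The 6 lists of DNA replication and repair moved nearly as a block. Of their 117 genes, all tested, 108 were lower, 2 were higher and 7 were not called, and 67 were at least 2-fold lower. That is 92.3% lower and 1.71% higher, against 15.7% and 12.4% of all tested genes. At least 2-fold decreases made up 1.29% of all tested genes. These shares of all tested genes also stand beside the counts of each of the 6 lists. The median log2 fold change was -1.13, which is 2.19 times lower. Their summed expression went from 16307 to 16432 CPM with DMSO to 8186 to 8237 CPM with BSJ-03-123. Leaving out any 1 of the 6 libraries gave 108 or 109 lower members.

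The replicative helicase, which unwinds DNA at forks, fell in every subunit, MCM2 to MCM7. All 8 genes of the MCM list, which also holds MCM8 and MCM10, were lower, each at least 2-fold, with a median of -1.75. MCM4, a subunit of the MCM2-7 ring, went from 998, 1028 and 1001 CPM to 268, 257 and 265 CPM (-1.94 ± 0.029, edgeR adjusted p = 6.92e-27). MCM2 went from 465, 493 and 452 CPM to 128, 127 and 126 CPM (-1.89 ± 0.036). MCM6, MCM5, MCM3 and MCM7 fell by 1.81, 1.77, 1.69 and 1.39 on the log2 scale, MCM10, which helps activate the helicase, by 1.74, and MCM8, which works in repair, by 1.25.

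Origin licensing and firing genes, which load and start that helicase, fell in 18 of 21 cases with a median of -1.26. GINS2, a subunit of the GINS complex that activates the helicase, measured 67.1, 66.5 and 64.6 CPM with DMSO and 12.7, 13.7 and 10.7 CPM with BSJ-03-123 (-2.42 ± 0.067). CDC45, its partner, fell from 78.7, 82.2 and 78.1 CPM to 17.4, 16.0 and 17.1 CPM (-2.24 ± 0.051). The loading factors CDC6, ORC1 and CDT1 fell by 1.87, 1.78 and 1.42 on the log2 scale, and GMNN, the inhibitor of CDT1, by 1.26. The 3 members not called were all subunits of the origin recognition complex: ORC2 (-0.047 ± 0.050), ORC4 (0.14 ± 0.069) and ORC5 (-0.077 ± 0.054). ORC4 was called higher with library totals.

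Of 28 polymerase, clamp and fork genes 27 were lower, 14 at least 2-fold, with a median of -0.99. PCNA, the sliding clamp of the polymerases, fell from 431, 440 and 437 CPM to 162, 161 and 155 CPM (-1.45 ± 0.034). CLSPN, which carries the checkpoint signal at the fork, went from 93.8, 87.3 and 95.5 CPM to 23.7, 24.4 and 25.1 CPM (-1.91 ± 0.053). The nucleases DNA2 and FEN1 fell by 1.58 and 1.34 on the log2 scale, and the polymerase epsilon subunit POLE2 by 1.54.

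The genes that supply deoxynucleotides split by direction. Of 13, 11 were lower and 2 higher (84.6% and 15.4%, against 15.7% and 12.4% of all tested genes). TYMS, which makes thymidylate, measured 204, 204 and 201 CPM with DMSO and 63.9, 62.6 and 61.4 CPM with BSJ-03-123 (-1.70 ± 0.035). The ribonucleotide reductase subunits RRM2 and RRM1 fell by 1.39 and 1.20 on the log2 scale, and thymidine kinase TK1 by 1.15. SAMHD1, which breaks deoxynucleotides down, moved the other way, from 513, 501 and 496 CPM to 614, 634 and 598 CPM (0.29 ± 0.032, edgeR adjusted p = 3.46e-08), with no overlap between groups. The count of 2 higher members was 1 without DMSO replicate 2 and 1 without BSJ-03-123 replicate 3, and SAMHD1 kept its call in each case.

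Genes that rebuild chromatin behind the fork fell in 14 of 15 cases, with a median of -0.99. CHAF1B, a subunit of the histone chaperone CAF-1, went from 48.6, 49.2 and 51.5 CPM to 10.6, 9.91 and 8.92 CPM (-2.34 ± 0.068). Its partner CHAF1A fell by 1.40 on the log2 scale. WDR76 fell from 68.5, 66.3 and 65.3 CPM to 13.0, 13.5 and 13.1 CPM (-2.34 ± 0.059). HELLS and UHRF1, which act in the maintenance of DNA methylation, fell by 1.69 and 1.45 on the log2 scale, and the methyltransferase DNMT1 by 0.79. ASF1A, a histone chaperone, was the member not called (-0.048 ± 0.046). Replication-dependent histone genes, whose RNAs mostly lack a poly(A) tail, gave little signal in this poly(A)-selected RNA: 9 of 18 were tested, none was called, and all 18 summed to 13.4 to 16.1 CPM with DMSO and 15.2 to 16.7 CPM with BSJ-03-123.

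Of 32 checkpoint and repair genes 30 were lower, 19 at least 2-fold, with a median of -1.12. UNG, which removes uracil from DNA, measured 134, 142 and 130 CPM with DMSO and 24.7, 21.8 and 23.7 CPM with BSJ-03-123, 5.80 times lower (-2.54 ± 0.052, edgeR adjusted p = 6.11e-25). It was the furthest fall in the 6 lists. BRIP1, EXO1, CHEK1 and BRCA1, which serve recombination and the replication checkpoint, fell by 1.81, 1.78, 1.60 and 1.45 on the log2 scale. The mismatch repair gene MSH6 fell by 1.13, while PMS2 of the same pathway was not called (-0.14 ± 0.069). The checkpoint kinase ATR was not called either (0.027 ± 0.044).

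**Figure D3:**
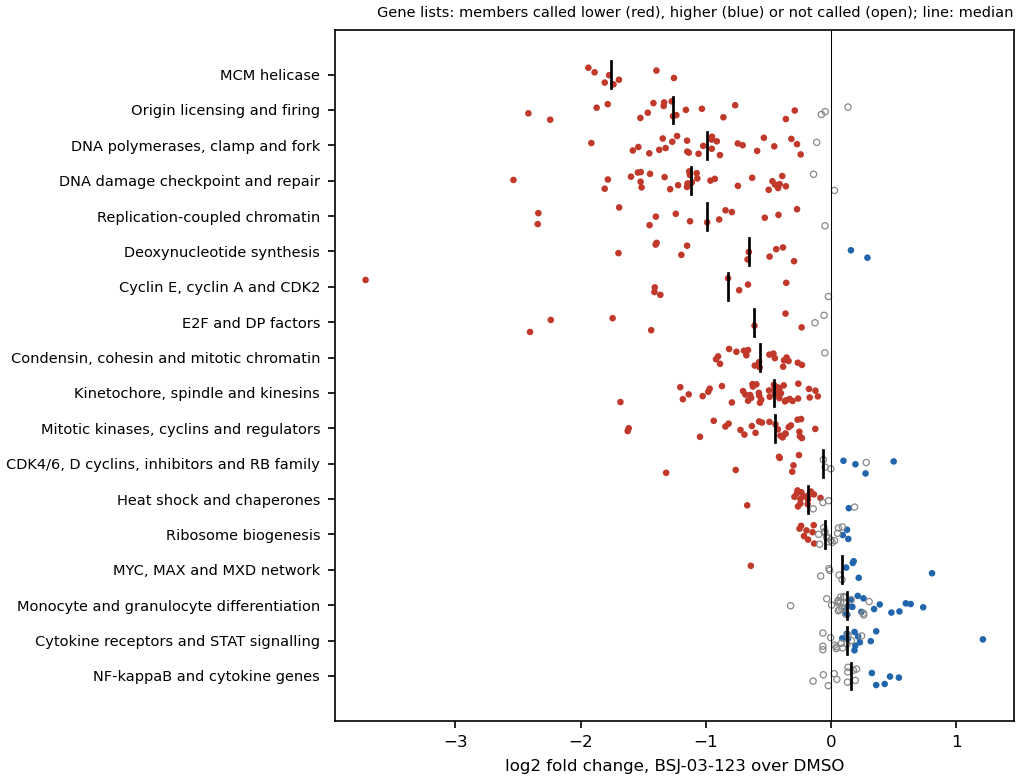
Each point is the log2 fold change of 1 tested gene, BSJ-03-123 over DMSO, in 18 gene lists on the y axis. Red points were called lower, blue points called higher and open points not called, and black lines are list medians. The medians run from -1.75 for the MCM helicase to 0.16 for the NF-kappaB list.

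Mitotic genes fell in nearly every case, with smaller changes. Of the 95 genes in 3 mitosis lists, all tested, 94 were lower and none higher, with a median of -0.49 and 8 members at least 2-fold lower. That is 98.9% lower and 0% higher, against 15.7% and 12.4% of all tested genes. At least 2-fold decreases made up 1.29% of all tested genes. These shares of all tested genes also stand beside the counts of each of the 3 lists. Leaving out 1 library at a time gave 91 to 95 lower members. The member not called had a log2 fold change of -0.05, and the furthest fall was that of CENPU. CENPF and ASPM, of the kinetochore and the spindle poles, were among the smallest called falls (-0.11 ± 0.037 and -0.12 ± 0.045), and lost their calls in 9 and 8 of the 14 alternatives. For CENPF these included the omission of each library but DMSO replicate 2, and for ASPM the omission of DMSO replicate 3 or BSJ-03-123 replicate 1 or 3.

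Among the 27 mitotic kinases, cyclins and regulators, all lower with a median of -0.44, the spread was wide. MYBL2, a transcription factor that acts before mitosis, fell from 245, 272 and 251 CPM to 86.0, 85.8 and 78.7 CPM (-1.62 ± 0.040). PKMYT1 and WEE1, the kinases that restrain CDK1, fell by 1.62 and 1.05 on the log2 scale. CDK1, the mitotic kinase, went from 128, 125 and 129 CPM to 81.4, 76.4 and 78.6 CPM (-0.69 ± 0.036). FOXM1, which drives G2 and M genes, fell by 0.72 and MELK by 0.94. PLK1, a kinase of mitotic entry and progression, went from 202, 213 and 202 CPM to 170, 174 and 179 CPM (-0.24 ± 0.034), and CCNB2, AURKA and CCNB1 fell by 0.25, 0.23 and 0.13. For PLK1 the lowest control lay above the highest treated library.

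The 47 kinetochore, spindle and kinesin genes were all lower, with a median of -0.46, and 5 fell at least 2-fold. CENPU, of the inner kinetochore, fell from 75.2, 67.3 and 76.7 CPM to 23.5, 21.5 and 23.1 CPM (-1.68 ± 0.056). CENPM and ZWINT fell by 1.20 and 1.14 on the log2 scale, and NUSAP1, a spindle protein, by 0.64. Of 21 condensin, cohesin and mitotic chromatin genes 20 were lower, none by 2-fold, with a median of -0.57. The condensin subunits NCAPH2, NCAPG and NCAPG2 fell by 0.92, 0.90 and 0.89, and HMGB2, TOP2A and the proliferation marker MKI67 by 0.70, 0.38 and 0.46.

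Mitotic promoters often carry the CHR element, through which the DREAM and MMB complexes act. Its letters, TTTGAA or TTCGAA on either strand, are shown here for 2 mitotic genes, CCNB2 and PLK1, chosen after their values were seen. The windows are again the 150 bases upstream of the start, with the element in capitals.
CCNB2: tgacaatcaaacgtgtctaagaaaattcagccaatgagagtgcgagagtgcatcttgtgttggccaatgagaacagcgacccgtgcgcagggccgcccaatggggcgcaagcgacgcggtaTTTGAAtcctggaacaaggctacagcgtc
PLK1: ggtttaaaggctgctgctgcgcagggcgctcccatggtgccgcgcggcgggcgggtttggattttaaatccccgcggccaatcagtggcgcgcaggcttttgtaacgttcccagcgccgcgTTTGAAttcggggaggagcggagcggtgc
They lie at chr15:59104996-59105145 (plus strand) for CCNB2 and chr16:23678739-23678888 (plus strand) for PLK1, with the element 29 bases before the start in each. A CHR element stood in 63.2% of windows of the mitosis lists (48 of 76) and in 11.1% of all tested genes' windows, and in 8.25% for the replication lists. E2F motifs showed the opposite order, at 14.5% for the mitosis lists and 40.2% for the replication lists. These list shares describe the genes chosen for the lists and not the response. Of the 125 windows of genes at least 2-fold lower, 15 had a CHR element, or 12%. The share was 15.9% for genes lower by less than 2-fold, 10.2% for genes not called and 10.1% for genes called higher.

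Large decreases also fell outside every list: 99 of the 183 genes at least 2-fold lower. Those named here fell furthest among the ones averaging at least 2 log2 CPM. TP73, a relative of p53 and a known E2F1 target, went from 12.6, 14.4 and 10.8 CPM to 2.71, 3.16 and 2.88 CPM (-2.12 ± 0.13). PSMC3IP, which works in homologous recombination, fell from 17.2, 17.8 and 17.8 CPM to 4.97, 3.73 and 4.48 CPM (-2.01 ± 0.10). TCF19, DTL, ZNF367 and PAQR4 fell by 1.92, 1.90, 1.82 and 1.80 on the log2 scale, and DTL is the receptor of a ubiquitin ligase that destroys CDT1 in S phase. TUBB, a tubulin named for the size of its loss in CPM, fell by less (-0.55 ± 0.032), from 1989, 2128 and 1978 CPM to 1411, 1404 and 1357 CPM.

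Increases were smaller. IL7R, the receptor of interleukin 7, at chromosome 5, 35852695 to 35879603, rose furthest once genes averaging under 2 log2 CPM were set aside. It measured 2.93, 3.19 and 4.02 CPM with DMSO and 7.67, 7.94 and 7.74 CPM with BSJ-03-123, 2.32 times higher (1.21 ± 0.12, edgeR adjusted p = 4.09e-09). NCKAP5L, which binds microtubules, rose from 10.7, 12.5 and 11.4 CPM to 22.7, 22.7 and 22.7 CPM (0.97 ± 0.076). The 3 treated NCKAP5L values were equal to 3 digits. DYRK1B, a kinase linked to exit from the cell cycle, went from 9.74, 10.4 and 10.6 CPM to 17.3, 17.8 and 18.1 CPM (0.79 ± 0.075). TMEM150A, LHFPL2, RAB7B, CTTNBP2NL, NHSL2 and YPEL2 rose by 0.92, 0.86, 0.86, 0.81, 0.77 and 0.74 on the log2 scale, and TREM2, ABAT and ARRDC4 by 0.74, 0.73 and 0.73. All of these named genes kept their call under each alternative analysis.

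In the network of MYC partners, 5 of 11 tested genes were higher and 1 lower (45.5% and 9.09%, against 12.4% and 15.7% of all tested genes). MXD4, which pairs with MAX and opposes MYC, rose from 39.9, 40.5 and 36.4 CPM to 66.3, 71.7 and 66.9 CPM (0.81 ± 0.050). MXD1 and MXI1, of the same family, rose by 0.22 and 0.18 on the log2 scale, while MXD3, a family member expressed in S phase, fell (-0.64 ± 0.073). MYC itself measured 534, 586 and 539 CPM with DMSO and 545, 561 and 533 CPM with BSJ-03-123, overlapping ranges, and was not called (-0.018 ± 0.035). Of 25 ribosome biogenesis genes, a class that MYC drives, 8 were lower and 3 higher, or 6 higher with library totals. The lower share was 32% against 15.7% of all tested genes, and the higher share of 12% was near their 12.4%. NCL, a nucleolar protein, fell by 0.20 on the log2 scale.

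**Figure D4:**
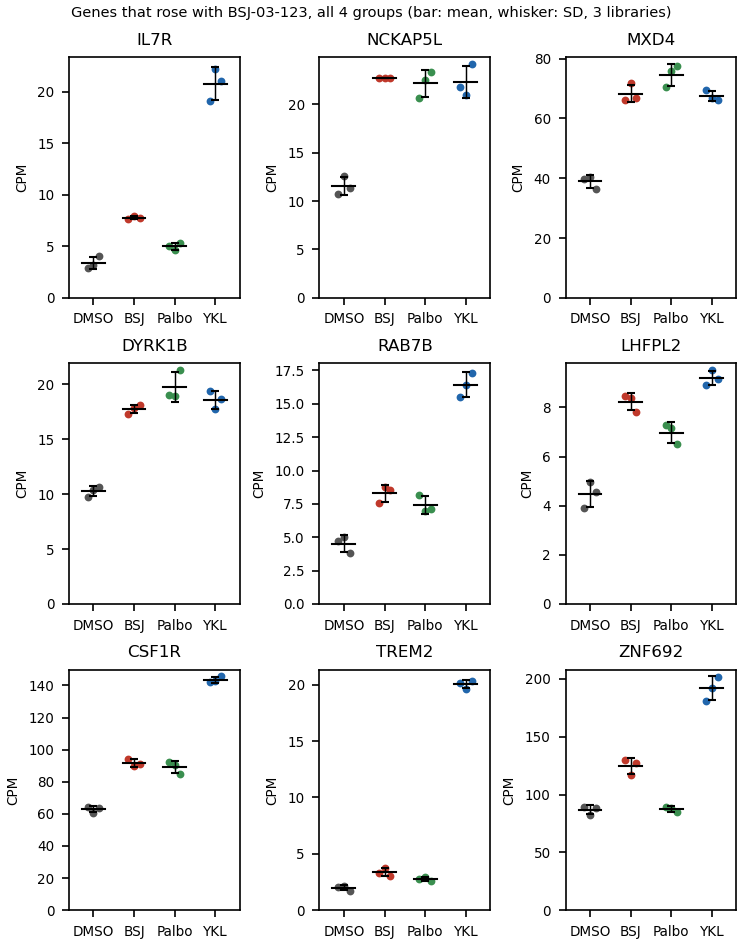
CPM of 9 genes that rose with BSJ-03-123, in each of 3 libraries of the DMSO, BSJ-03-123, palbociclib (Palbo) and YKL-06-102 (YKL) groups, with bars for means, whiskers for SDs and y axes from 0. IL7R, CSF1R, TREM2 and ZNF692 were highest with YKL-06-102, and ZNF692 with palbociclib lay at the DMSO level.

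Differentiation genes of the myeloid lineage moved up in part. Of 35 tested genes of the monocyte and granulocyte list 16 were higher and none lower, with a median of 0.13. Those shares were 45.7% and 0%, against 12.4% and 15.7% of all tested genes. The higher count was 9 without DMSO replicate 1, 8 without DMSO replicate 3 and 10 without BSJ-03-123 replicate 1. Over all omissions it ran from 8 to 21, and over the other settings from 12 to 23. CSF1R, which receives the macrophage growth signal CSF1, rose from 64.6, 60.8 and 63.5 CPM to 94.5, 89.7 and 91.3 CPM (0.55 ± 0.040, edgeR adjusted p = 7.77e-12). FCGR2A, an Fc receptor, rose from 17.9, 17.8 and 19.8 CPM to 26.3, 25.5 and 25.5 CPM (0.48 ± 0.063), and CD36 and TLR2 by 0.26 and 0.24 on the log2 scale. In these 4 genes the groups did not overlap. CEBPE, a factor of granulocyte maturation with few reads, rose from 2.04, 1.82 and 1.57 CPM to 2.81, 2.34 and 3.30 CPM (0.64 ± 0.17), and was not called without BSJ-03-123 replicate 3 (edgeR adjusted p = 0.056). LYZ, lysozyme, was not called (0.058 ± 0.031), but was with library totals. CD14, CD163 and FCGR3A, markers of mature monocytes, had too few reads to be tested.

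Some genes of inflammation and cytokine signalling were higher, and most were not called. Of 24 cytokine receptor and STAT genes 11 were higher (45.8%), none lower and 13 not called. Of all tested genes 12.4% were called higher and 15.7% lower. Without BSJ-03-123 replicate 2 the list had 7 higher members. STAT3 rose from 78.0, 73.8 and 73.5 CPM to 99.0, 99.5 and 90.6 CPM (0.36 ± 0.040), and IL10RA and IL3RA by 0.32 and 0.22 on the log2 scale. IL2RG, the chain shared with the interleukin 7 receptor, was not called (0.043 ± 0.056). Of 16 NF-kappaB and cytokine genes 5 were higher (31.2%, against the same 12.4%), none lower (against 15.7%) and 11 not called. TNF rose from 12.1, 15.2 and 12.9 CPM to 19.5, 20.9 and 18.6 CPM (0.54 ± 0.087), and the adhesion molecule ICAM1 and TNFAIP2 rose by 0.47 and 0.36.

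Genes that sustain this leukaemia were read next. Of 13 tested KMT2A fusion targets and stem cell factors 4 were higher, 1 lower and 8 not called. Those shares were 30.8% higher and 7.69% lower, against 12.4% and 15.7% of all tested genes. The higher count was 1 without DMSO replicate 1 or BSJ-03-123 replicate 3 and in a fit of the 2 groups alone, and 2 without DMSO replicate 2 or BSJ-03-123 replicate 2. JMJD1C, a chromatin regulator, rose from 139, 137 and 152 CPM to 153, 160 and 158 CPM (0.14 ± 0.037, edgeR adjusted p = 0.00434) and kept its call in all 14 alternatives. The transcription factors LMO2, ZEB2 and RUNX1 were the other higher members (0.10 ± 0.030, 0.10 ± 0.035 and 0.095 ± 0.033), and lost their calls in 3, 5 and 5 of the alternatives. HOXA9 and MEIS1, targets of the KMT2A fusion, were not called (-0.032 ± 0.043 and 0.0092 ± 0.037), and HOXA10, the lower member, fell by 0.15 on the log2 scale. SPI1, the myeloid factor PU.1, was not called (0.075 ± 0.037), but was without DMSO replicate 2 and with library totals (edgeR adjusted p = 0.00091 and 0.0101). FLT3, the mutated receptor kinase of these cells, was called higher by a small margin (0.09 ± 0.032, edgeR adjusted p = 0.0347), and the omission of any library but DMSO replicate 3, or a fit of the 2 groups alone, ended that call.

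Of 13 tested genes of the BCL2 family, which sets the threshold for cell death, 2 were higher, 2 lower and 9 not called (15.4% each way, near the 12.4% and 15.7% of all tested genes). The higher count was 1 without BSJ-03-123 replicate 1 or 3, and 4 with library totals or no filter on low counts. The survival gene BCL2 rose from 235, 235 and 245 CPM to 255, 263 and 272 CPM (0.14 ± 0.034), MCL1 was not called (0.061 ± 0.031), and the death promoters PMAIP1 and BAX fell by 0.33 and 0.19. BMF, also a death promoter, was higher, at 61.8, 60.4 and 60.6 CPM with DMSO and 68.3, 65.1 and 70.5 CPM with BSJ-03-123 (0.16 ± 0.049, edgeR adjusted p = 0.0161), and was not called without BSJ-03-123 replicate 1 or 3. MCL1 was called with library totals. Of 20 tested p53 target genes 4 were higher and 4 lower (20% each way, against 12.4% and 15.7% of all tested genes), with 2 higher without DMSO replicate 2 and 7 with library totals. DDB2, a damage sensor, fell from 23.8, 23.5 and 24.6 CPM to 15.3, 14.5 and 15.5 CPM (-0.66 ± 0.062), while BTG2 and SESN2 rose by 0.32 and 0.37.

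The phthalimide side of the conjugate engages cereblon, so cereblon RNA and that of reported substrates were read too. CRBN, cereblon, measured 24.9, 23.0 and 25.0 CPM with DMSO and 26.5, 24.0 and 23.7 CPM with BSJ-03-123 and was not called (0.028 ± 0.063). Substrates of cereblon ligands are lost as protein, which RNA does not show. Of 22 tested genes of that list 4 were higher and 4 lower (18.2% each way, near the 12.4% and 15.7% of all tested genes). The higher count was 2 without BSJ-03-123 replicate 3 and 7 with library totals, and the lower count was 2 without DMSO replicate 3 or BSJ-03-123 replicate 2. ZNF692, a zinc finger gene at chromosome 1, 248850006 to 248859144, rose from 89.5, 82.5 and 88.7 CPM to 130, 117 and 127 CPM (0.52 ± 0.045, edgeR adjusted p = 2.33e-10). ZNF276 rose by 0.30 on the log2 scale, RAB28 and ZFP91 fell by 0.31 and 0.13, and IKZF1 and CSNK1A1 were not called (0.027 ± 0.033 and 0.10 ± 0.041). CSNK1A1 was called higher in 4 of the 14 alternatives, among them the omission of DMSO replicate 2 or 3. GSPT1, a translation release factor, was called lower (-0.085 ± 0.031, edgeR adjusted p = 0.0431), but not without DMSO replicate 1 or 3 or BSJ-03-123 replicate 2 or 3, nor in 4 other alternatives.

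Chaperone genes fell as a group: 75% were called lower and 5% higher, against 15.7% and 12.4% of all tested genes. Of 20 tested heat shock genes 15 were lower and 1 higher, with a median of -0.19, and their sum went from 17359 to 17624 CPM with DMSO to 15149 to 15746 CPM with BSJ-03-123. HSPA1A, the inducible HSP70, went from 277, 305 and 273 CPM to 168, 182 and 188 CPM (-0.67 ± 0.040), though reads shared with its near-identical copy HSPA1B make its count uncertain. HSP90AA1, HSPH1 and HSPA8 fell by 0.27, 0.26 and 0.22 on the log2 scale. HSPA5, the chaperone of the endoplasmic reticulum, was the member that rose (0.14 ± 0.029).

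BSJ-03-123 was also read directly against palbociclib, at the same dose and time. The compounds differ in their described target kinases and in the phthalimide, as well as in degradation. These differences cannot be told apart here. The 2 treatments differed in few genes. Of 14214, 22 were higher with BSJ-03-123 (0.155%) and 0 lower by edgeR's test. At an unadjusted p under 0.05 there were 681 higher and 517 lower genes. With no difference in any gene a share near 0.05 of tests would still pass, so these do not count differing genes. Together they were a larger share than that of the 14214. With DESeq2 the counts were 38 and 5, and with limma-voom 17 and 0.

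The calls included genes that were lower than with DMSO under either compound, and genes that BSJ-03-123 raised. ZNF692 was among the raised ones. It measured 89.0, 88.5 and 84.4 CPM with palbociclib against the treated values above, a difference of 0.51 ± 0.045 on the log2 scale (edgeR adjusted p = 9.10e-08), with no overlap. IL7R lay at 5.04, 4.68 and 5.35 CPM with palbociclib, so BSJ-03-123 was higher by 0.63 ± 0.11 (edgeR adjusted p = 0.00691). That call was lost without BSJ-03-123 replicate 2 and without palbociclib replicate 1 or 2.

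MCM4 fell a little less with the degrader. Its palbociclib libraries held 225, 223 and 219 CPM, a difference of 0.24 ± 0.031 (edgeR adjusted p = 6.48e-05). HSPA1A lay at 134, 138 and 140 CPM with palbociclib (0.39 ± 0.042, edgeR adjusted p = 6.06e-06). ZNF692, HSPA1A and MCM4 were the genes called after every single-library omission, where the count of higher genes fell to between 3 and 13. Of the 117 replication and repair genes 9 were higher than with palbociclib and none lower, and of the 95 mitotic genes none was called. Of all tested genes 0.155% were higher and 0% lower.

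For the other genes of the cell cycle the interval of the difference is the limit. For E2F1 it ran from -0.0077 to 0.26 on the log2 scale, for PCNA from -0.0043 to 0.14 and for PLK1 from -0.052 to 0.088. In other genes not called it lay above 0, as in MCM6 (0.090 to 0.24) and MCM10 (0.067 to 0.28). The median difference was 0.084 over the 117 replication and repair genes and 0.048 over the 95 mitotic genes. CDK6 RNA differed by 0.054 ± 0.034, with an interval from -0.016 to 0.13. CSF1R had an interval from -0.038 to 0.12. These are 95% intervals, and a missed threshold does not show that the treatments act alike.

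**Figure D5:**
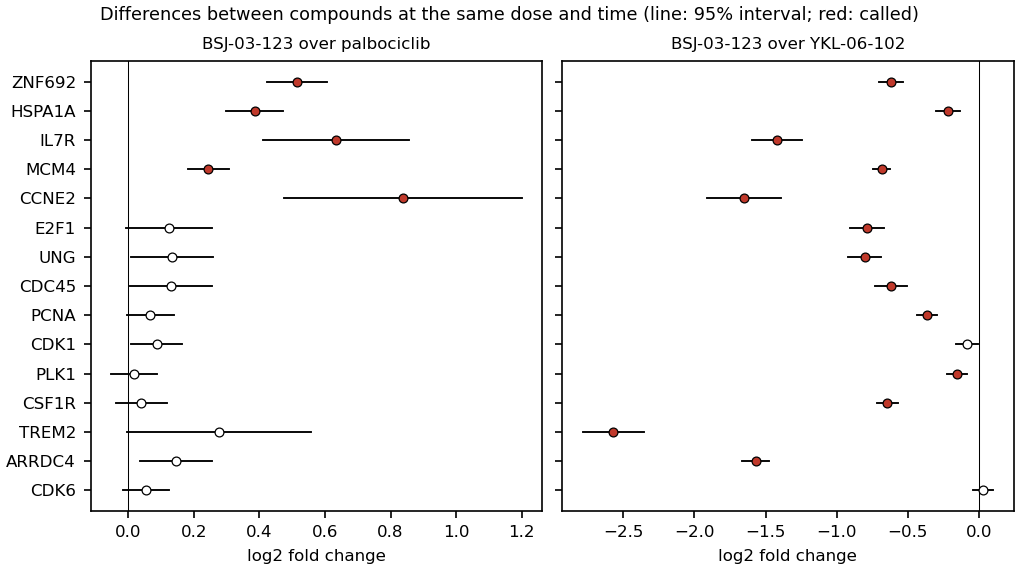
Log2 fold changes of 15 genes, BSJ-03-123 over palbociclib on the left and over YKL-06-102 on the right, with lines for 95% intervals and red points for called genes. On the left ZNF692, HSPA1A, IL7R, MCM4 and CCNE2 were called higher, and on the right 13 genes were called lower.

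Against YKL-06-102, the other conjugate, the differences were many. At the same dose and time 20.1% of genes were called: 1385 genes were higher with BSJ-03-123 (9.74%) and 1476 lower (10.4%). The higher count was 903 without BSJ-03-123 replicate 1 and 840, 823 and 795 without YKL-06-102 replicates 1, 2 and 3. Replication genes were lower still with BSJ-03-123: 85 of 117 were called lower and 2 higher, with a median difference of -0.26. CCNE2 lay at 10.6, 11.6 and 10.3 CPM with YKL-06-102 (-1.65 ± 0.13, edgeR adjusted p = 1.55e-11), and MCM4 at 420, 429 and 420 CPM (-0.68 ± 0.030). Each of these libraries lay above those of BSJ-03-123.

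Several genes that BSJ-03-123 raised were higher still with YKL-06-102. IL7R lay at 19.1, 22.2 and 21.1 CPM there, so BSJ-03-123 was lower by 1.42 ± 0.086 on the log2 scale. TREM2, a receptor of macrophages and microglia, measured 2.09, 2.18 and 1.74 CPM with DMSO, 3.31, 3.78 and 3.02 CPM with BSJ-03-123 and 20.2, 19.6 and 20.3 CPM with YKL-06-102 (-2.57 ± 0.11). CSF1R, ARRDC4 and ZNF692 were lower with BSJ-03-123 than with YKL-06-102 by 0.64, 1.57 and 0.62. CDK6 RNA was not called between the conjugates (0.03 ± 0.034, 95% interval -0.041 to 0.10).

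Whether the reads were counted by strand is not given in the sources used here, so genes whose exons overlap another expressed gene are less certain. Among the named genes the overlapping partner had more counts than the gene itself for CCND1, CRBN, GINS2, PSMC3IP, CHEK1, CHAF1B, PAQR4, FEN1, TMEM150A, CCNE2, ABAT and MXD3, and at least 10% as many for MXD1, MCM2, HOXA9, TP73, NCAPG, FOXM1, ASF1A, CSNK1A1, ORC4, MSH6, PKMYT1, CDK4, CCNA2, CENPU, ZNF276, CHAF1A, TYMS and HOXA10.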

How the data were processed

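Per the labels' protocols, poly(A) RNA of MV4-11 cells was made into TruSeq Stranded mRNA libraries, 3 per group. What the authors deposited is 1 table of raw, unnormalized counts by Ensembl gene and library. The submitters' processing notes name Trimmomatic 0.36, STAR 2.5.2b, HTSeq and hg38. Annotation release and strand setting: not given in the sources used here.

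GENCODE 29 (GRCh38) gave names to 57447 of the 58051 IDs. Of 28826 genes with a count, 14214 passed edgeR's filterByExpr (minimum count 10, minimum total 15) and held 99.9% of counts. A single edgeR 4.0.16 fit (R 4.3.3) took all 12 libraries (TMM factors, quasi-likelihood, 2-sided tests, 8 residual degrees of freedom), and BSJ-03-123 was contrasted with DMSO, palbociclib and YKL-06-102. Benjamini-Hochberg adjustment was over all tested genes of a contrast. Standard errors and 95% intervals are Wald values. Totals of 18764307 to 25539858 counts and a common biological coefficient of variation of 3.08% set the precision, and reads had no molecular identifiers. The fit was first run on simulated data, which had the same spread for every gene and no library set apart. DMSO replicate 2 does stand apart here, so that run does not measure the errors in these data.

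Members, the 33 gene lists and the naming rule were chosen with earlier results of these data known. The rule names called genes whose libraries do not overlap and whose average log2 CPM is at least 2: the 12 highest and 12 lowest fold changes, the 10 highest and 10 lowest in no list, and the 8 largest gains and losses of CPM. It adds, from each list, up to 5 called members a direction by p and 3 by fold change, and all members of the CDK4/6, E2F, cyclin E, MYC and cereblon lists. Between compounds it takes up to 12 called genes by p, or the 6 highest and 6 lowest. Members of lists named outside that rule, among them MCM8, MCM10, PLK1, CCNB1, CCNB2, TOP2A and MKI67, were chosen after their values were seen, and 17 genes were left out after their alternatives were seen. Alternatives changed the scaling, filter, test (limma 3.58.1, DESeq2 1.42.0), fitted groups and replicate block, and left out each library in turn. Values of some list members are not reported here.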

Additional observations from a re-analysis of the deposited data

How the results depend on the processing

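Of 162 genes named in the text, 142 were called against DMSO, and 132 of these kept direction and call in all 14 alternatives. That share is not a measure of stability, because 17 genes considered for the text (10 of them called, each losing its call somewhere) were left out after their alternatives were seen. Of all 222 called genes that the naming rule gives, 185 kept direction and call in every alternative, and 0 reversed. Counts against DMSO stayed within 1.5 times except for library totals in place of TMM factors, with 2852 higher. Against palbociclib, where 22 genes were higher and 0 lower, more depended on the setting. Library totals gave 2 lower genes, no filter on low counts 42 higher and 22 lower, DESeq2 38 higher and 5 lower, and a fit of the 2 groups alone 61 higher and 14 lower. Omitting single libraries gave 3 to 13 higher and 0 to 2 lower genes against palbociclib, and 795 to 1022 higher genes against YKL-06-102. The cause was not tested. Where an omission left 2 libraries, the spread was still shared with the other groups. 

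The replicate block, a term for the replicate number, gave 1749 higher and 2242 lower genes against DMSO, and 25 higher and 1 lower against palbociclib. Deviations of same-numbered DMSO and BSJ-03-123 libraries correlated at 0.087, 0.227 and 0.203, so the numbers were not taken as pairs, although every library correlated best with its own number in the other group, a hint from the data.

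Reversals of sign were all in genes not called. CCND3 had 0.042 with library totals, 0.010 with no filter, 0.016 with the filter of at least 1 CPM in 6 libraries, and -0.041 to 0.064 over the omitted libraries. MYC had 0.026 with library totals, 0.00042 with the filter of at least 1 CPM, and -0.048 to 0.025 over the omissions. HOXA9 had 0.011 with library totals. Over the omissions ATR ranged from -0.031 to 0.054, CRBN from -0.028 to 0.054, IKZF1 from -0.00096 to 0.067 and MEIS1 from -0.024 to 0.045. Depth limits genes of few reads: the median size of called log2 changes was 1.19 below an average log2 CPM of 0 and 0.146 at 8 or more.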

Other observations

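The mitochondrially encoded genes, 13 in all, summed to 29840, 22793 and 32182 CPM in the 3 DMSO libraries and 25752, 22800 and 27353 CPM with BSJ-03-123. DMSO replicate 2 had the lowest control value, and the groups overlapped. With all libraries 2 of the 13 were called lower and none higher (15.4% and 0%, against 15.7% and 12.4% of all tested genes). Without DMSO replicate 2 all 13 were called lower, without BSJ-03-123 replicate 3 there were 5, and without DMSO replicate 1, DMSO replicate 3 or BSJ-03-123 replicate 2 there was 1. The part that this library plays in the values was not tested.

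Interferon-stimulated genes, which respond to viral and inflammatory signals, were higher in 4 of 24 cases and lower in none, or 16.7% higher against 12.4% of all tested genes. The count was 2 without DMSO replicate 2, DMSO replicate 3, BSJ-03-123 replicate 1 or BSJ-03-123 replicate 3, and 9 with library totals. Of 22 tested MAPK and immediate-early genes 1 was higher and 2 were lower, with a median log2 fold change of -0.06. Those shares of 4.55% and 9.09% were below the 12.4% and 15.7% of all tested genes.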
